A study of Mus musculus with 16 samples.

Results

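Signaling through receptor tyrosine kinases, the Ras GTPases and the kinases Raf, Mek and Erk switches on a set of genes whose products slow the same pathway down. The 8 ERK feedback inhibitors followed here, out of 38926 genes in the largest tables, were chosen by name as well-known members of this set. The choice was made with earlier results of these data known. The 8 genes are the Sprouty genes Spry1, Spry2 and Spry4, the Sprouty-related genes Spred1 and Spred2, and the dual-specificity phosphatases Dusp4, Dusp5 and Dusp6. Sprouty and Spred proteins act at the membrane between the receptor and Raf, and Spred proteins bring the Ras GTPase-activating protein neurofibromin to Ras. The phosphatases remove phosphate from Erk itself, Dusp6 in the cytoplasm and Dusp4 and Dusp5 in the nucleus. In endothelial cells (ECs), which answer VEGF, FGF and angiopoietins through this cascade, these genes are known as readouts of, and brakes on, growth factor signaling. All values are RNA levels, and neither Erk phosphorylation nor protein was measured in these libraries.

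The data are RNA-seq of FACS-sorted bone ECs from C57BL/6 mice, in 16 libraries and 3 comparisons. The first sets 3 libraries of ECs from the marrow of the diaphysis (bmECs) against 3 from the metaphysis (mpECs), the growing end of the bone, in 3-week-old animals labelled wild type and sorted by the Cdh5-mTnG reporter, which marks cells that use the endothelial gene Cdh5. The second sets 3 libraries labelled ECKO, with genotype Yap1flx/flx; Wwtr1flx/flx and Cdh5CreERT2 positive, against 3 Cre-negative controls with the same floxed alleles, at postnatal day 21. Yap1 and Taz (encoded by Wwtr1) are transcriptional coactivators of the Hippo pathway. The third sets 2 libraries labelled Lats2 cKO, Lats2flx/flx and Cdh5CreERT2 positive, against 2 Cre-negative Lats2flx/flx controls. By the methods these too were 3-week-old animals. Lats2 is the kinase that restrains Yap1 and Taz. Cdh5-CreERT2 is a tamoxifen-inducible recombinase under an endothelial promoter, pups of these lines received tamoxifen, and controls were littermates, so that the alleles of the controls are floxed but not recombined. Mutants and controls were sorted with antibodies to CD31 and endomucin, and animals of both sexes were combined. The methods state biological replicates in sets of 3, while the Lats2 comparison holds 2 libraries a group. The labels do not tie a library to an animal.

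Values are FPKM, that is fragments scaled to transcript length and to library size, so that levels can be set side by side between genes. The 3 tables were normalised separately, and a level compared between tables carries that limit. Reads on genes recovered from the values ran from 11122417 to 14756144 in the mpEC and bmEC libraries, from 4889945 to 7162965 in the Yap1/Taz set and from 4732694 to 7074017 in the Lats2 set. Groups were compared on log2(FPKM + 1) with limma, for genes averaging 1 FPKM or more, the difference on that scale being the log2 fold change (log2FC), and a gene was called changed at a Benjamini-Hochberg adjusted p below 0.05 over all genes tested, namely 11422, 11320 and 12453 genes. In whole sorted populations, fewer cells of a type and less RNA per cell cannot be told apart.

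The genotype labels were checked first. Yap1 stood at 1.07, 1.62 and 0.995 FPKM in the Yap1/Taz controls and at 1.43, 1.03 and 0.989 FPKM in the libraries labelled ECKO, with a log2FC of -0.04 (limma, adjusted p = 0.934). Wwtr1, the other targeted gene, stood at 10.0, 9.88 and 10.3 FPKM in the controls and at 15.3, 19.6 and 19.5 FPKM in the libraries labelled ECKO, a log2FC of 0.78 (SE 0.12, adjusted p = 0.0272). Wwtr1 RNA was therefore higher where the label says that the gene was deleted. Gene-level FPKM sums all exons, so that reads from exons outside a deleted part still count. Reads were not divided by exon, and the cause of the higher Wwtr1 level was not tested. The libraries are called by their label below, and a direction drawn from this comparison is that of the labels. Lats2 stood at 23.4 and 24.0 FPKM in its controls and at 19.2 FPKM in each Lats2 cKO library, without overlap, a log2FC of -0.29 (SE 0.11, adjusted p = 0.125).

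Endothelial markers were present in every library, with summed levels of 8 genes between 488.2 and 1733 FPKM. Transcripts of other cells were present too: the sum of 5 erythroid markers lay between 176.5 and 42433 FPKM and that of 6 neutrophil markers between 564.3 and 23202 FPKM. No listed marker was at 0 in all libraries of a comparison. Where these sums moved with a group they are given beside the result.

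Promoters are shown for 3 members, Spry1 and Spry2 because both were called in bmECs and Dusp5 because of the motifs it holds and its likeness to immediate-early genes. They are given as the bases before the RefSeq start of each gene in GRCm38.p6, read 5′ to 3′ on the strand of the gene. The Dusp5 run is cut to 214 bases. It stops where the gene begins in the GENCODE annotation, short of the RefSeq start. RefSeq windows were at hand for 6 of the 8 members. Capitals mark matches, on either strand, to GGAATG, the core of the site bound by TEAD factors, through which Yap1 and Taz act, and to the CArG box, the site of serum response factor.
Dusp5: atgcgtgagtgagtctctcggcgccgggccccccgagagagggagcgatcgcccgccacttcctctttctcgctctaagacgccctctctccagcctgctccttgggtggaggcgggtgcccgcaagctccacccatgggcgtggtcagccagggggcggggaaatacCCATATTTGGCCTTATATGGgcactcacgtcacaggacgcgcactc
Spry1: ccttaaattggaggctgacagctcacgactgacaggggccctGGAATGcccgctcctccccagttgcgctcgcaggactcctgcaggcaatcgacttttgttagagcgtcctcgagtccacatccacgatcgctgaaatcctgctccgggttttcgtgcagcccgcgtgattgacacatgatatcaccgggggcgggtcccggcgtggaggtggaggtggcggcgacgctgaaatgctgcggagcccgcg
Spry2: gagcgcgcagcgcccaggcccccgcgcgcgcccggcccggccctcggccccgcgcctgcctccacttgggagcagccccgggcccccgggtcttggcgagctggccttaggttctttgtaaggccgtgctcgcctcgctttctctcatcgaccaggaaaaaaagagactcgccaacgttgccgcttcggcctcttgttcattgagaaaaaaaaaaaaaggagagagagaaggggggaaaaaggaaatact
The Dusp5 run lies at chr19:53528895-53529108 and holds 2 CArG boxes that abut without overlap. Over the 250 bases before the start, 1.47% of the 32851 windows in the table held a CArG box and 6 windows, or 0.0183%, held 2 or more. None of the other 5 members with a window held one. The Spry1 run, at chr3:37639697-37639946, holds 1 GGAATG, a motif found in 12.6% of all windows and in none of the other 5 members' windows. The Spry2 run, at chr14:105896820-105897069 on the minus strand, holds neither motif. Other short motifs, CCGGAA for ETS factors (12.0% of all windows), TGANTCA for AP-1 (6.75%), TGACGTCA for cAMP response factors (1.55%) and TATAAA (12.4%), matched no member window. GC content over the full 250 bases was 64.0% for Dusp5, 62.4% for Spry1 and 62.4% for Spry2, against a median of 52.4% over all windows. A match describes letters, not binding.

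The 8 brakes were far from equal in level. Dusp6 was the most abundant in mpECs, bmECs and both Lats2 groups, between 89.7 and 132.5 FPKM, and no other member overlapped it there. Dusp4, its nuclear relative, was at 0 to 0.451 FPKM in mpECs, bmECs and Lats2 controls and at 1.10 and 2.13 FPKM in Lats2 cKO. In mpECs the order below Dusp6 ran Spry2, Spry4, Spred1, Spry1, Dusp5, Spred2 and Dusp4, and only the last pair overlapped. In bmECs the order was Spry2, Spry1, Spry4, Spred1, Dusp5, Spred2 and Dusp4; Spry1, Spry4 and Spred1 overlapped in sequence, as did Dusp5 and Spred2.

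The Yap1/Taz set had another profile. Dusp5 lay between 64.3 and 113.2 FPKM and overlapped Dusp6, at 65.5 to 92.9 FPKM, in both groups. Elsewhere Dusp5 was at 0.687 to 2.46 FPKM in mpECs and bmECs and at 6.10 to 12.2 FPKM in the Lats2 set. Dusp4 reached 5.61 to 12.7 FPKM in the Yap1/Taz set, while Spry4 was lowest of all there, at 0.643 to 1.71 FPKM. Junb, an immediate-early gene, stood in the same order as Dusp5 over the tables. Its FPKM were 34.9 to 109.5 in mpECs and bmECs, 157.9 to 221.9 in the Lats2 set and 655.6 to 1213 in the Yap1/Taz set. Not all immediate-early genes shared this order. Jun stood at 85.1 to 411.3 FPKM in mpECs and bmECs, 127.8 to 187.0 in the Lats2 set and 71.6 to 95.0 in the Yap1/Taz set. Egr1 was highest in the Lats2 set, at 14.0 to 27.3 FPKM, beside 9.57 to 16.8 in the Yap1/Taz set and 7.77 to 14.3 in mpECs and bmECs. Since each table was normalised by itself and comes from other animals and sorts, a difference between tables was not tested and cannot be told apart from that of the experiments.

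**Figure D1:**
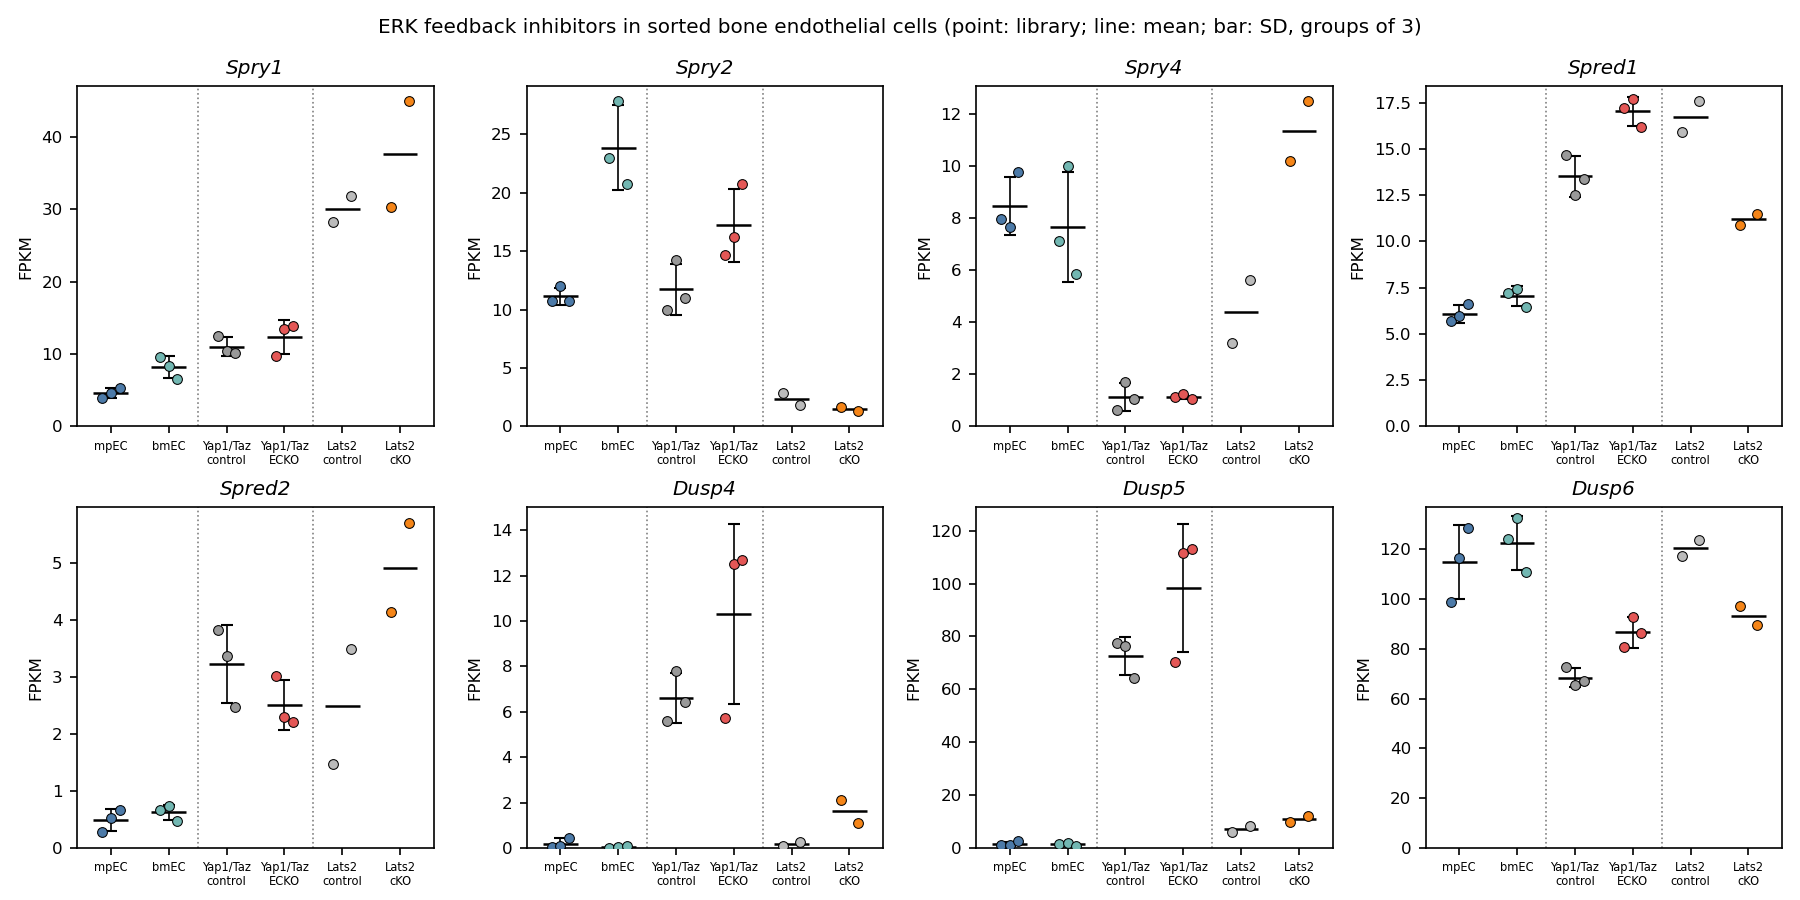
FPKM (vertical axis, from 0) of the 8 ERK feedback inhibitors in 16 libraries (points) by group, with the group mean (line) and, for groups of 3, the SD (bar). Dotted lines divide the 3 separately normalised tables; Spry2 is higher in bmECs than in mpECs, Spry4 is higher in Lats2 cKO than in its controls, and Dusp5 and Dusp4 are high in the Yap1/Taz set.

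Of the summed FPKM of Spry1, Spry2 and Spry4, Spry2 made up 41.5% to 49.3% in mpECs and 57.9% to 62.4% in bmECs. Spry4 made up 31.6% to 38.0% and 17.7% to 21.7% in the same groups. The Spry1 share was 17.3% to 20.5% and 18.2% to 24.1%. Shares of 1 sum are not independent: the Spry4 share was smaller in bmECs while Spry4 FPKM overlapped between the groups and was not called (log2FC -0.15, adjusted p = 0.597). In the Lats2 set Spry1 held 71.9% to 82.3% and Spry2 held 2.29% to 8.41%. Among the phosphatases Dusp6 held 97.8% to 99.3% in mpECs and bmECs, 87.1% to 95.0% in the Lats2 set and 40.7% to 51.5% in the Yap1/Taz set.

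**Figure D2:**
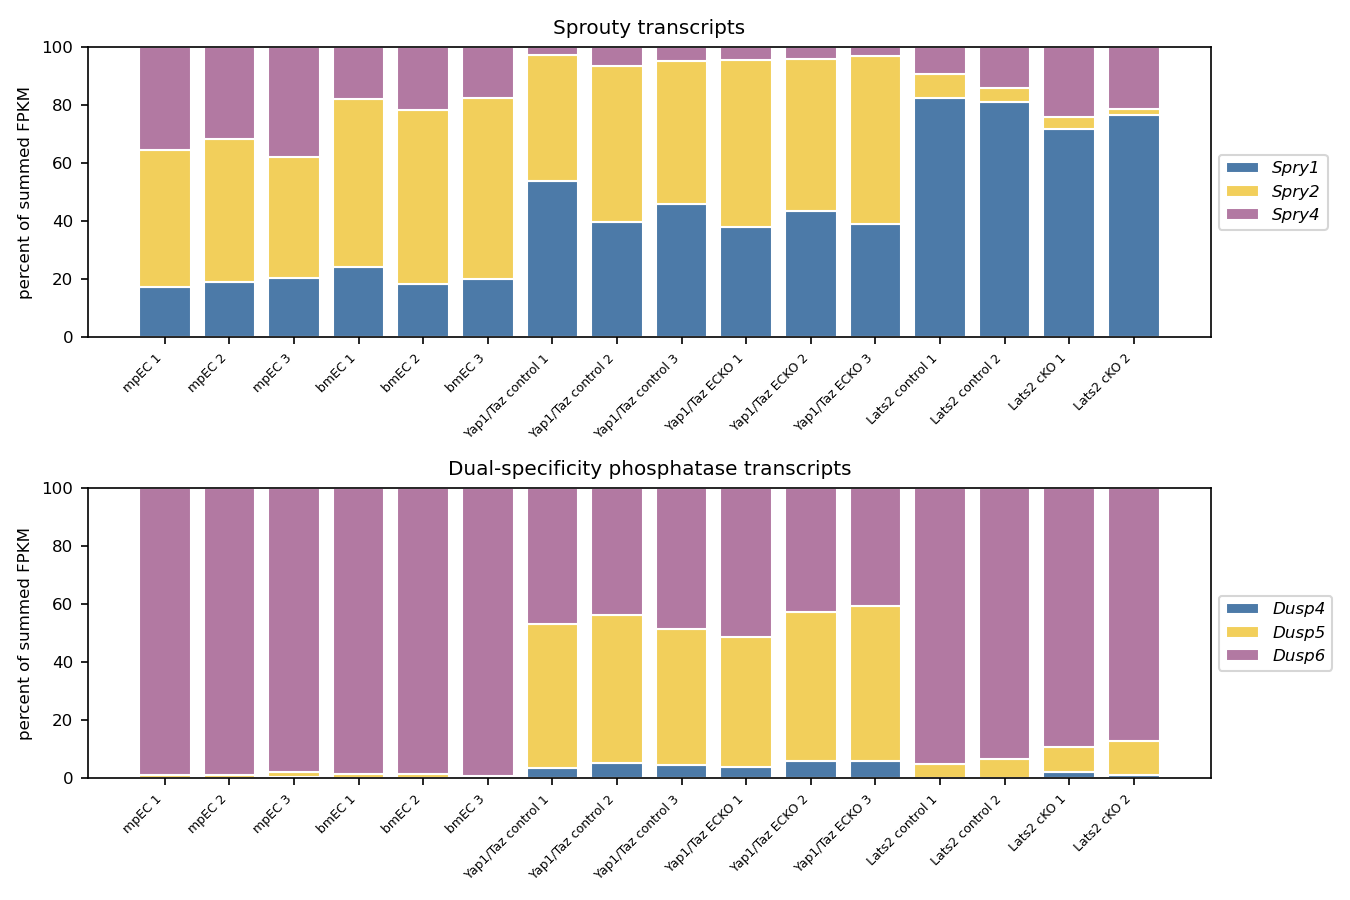
Share (percent of the summed FPKM, 0 to 100) of each Sprouty transcript (top) and each dual-specificity phosphatase transcript (bottom) in the 16 libraries on the horizontal axis. Spry2 holds the largest Sprouty share in all mpEC and bmEC libraries and Spry1 in all Lats2 libraries, and Dusp5 and Dusp6 divide the phosphatase total in the Yap1/Taz set only.

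The comparison of marrow with metaphysis asks how the 2 vascular beds of the bone differ. Here 2 of the 6 members tested, Spry2 and Spry1, were higher in bmECs and none was lower; over all genes 23.5% were called, and 13.0% were called higher. Of the calls over all genes 55.2% were higher, against 27% under limma-voom on recovered reads, which left Spry2 and Spry1 called higher. Spry2, an inhibitor of VEGF and FGF signaling, stood at 10.7, 12.0 and 10.7 FPKM in mpECs and at 23.0, 27.8 and 20.7 FPKM in bmECs. Every bmEC library lay above every mpEC library. The means were 11.1 ± 0.777 and 23.8 ± 3.67 FPKM (SD, n = 3 each), 2.14-fold apart, with a log2FC of 1.03 (SE 0.12) and an adjusted p of 0.000797 (limma). The call held in all 15 alternative settings, with adjusted p between 0.000414 and 0.00534.

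Spry1 was measured in mpECs at 3.90, 4.66 and 5.28 FPKM and in bmECs at 9.58, 8.40 and 6.58 FPKM, again without overlap. Its log2FC was 0.70 (SE 0.15, adjusted p = 0.0132), and it was called in all 15 alternatives, with adjusted p between 0.00923 and 0.0469. Without a stated strand setting its reads cannot be divided from those of Gm42922, a gene model on the opposite strand that covers 24.4% of the Spry1 exon bases. Among the 11422 genes tested 41.3% did not overlap between these groups, against these 2 of the 6 members.

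The other members did not pass the test. Spry4 stood at 7.97, 7.69 and 9.77 FPKM in mpECs and at 7.15, 10.0 and 5.85 FPKM in bmECs, with a log2FC of -0.15 (SE 0.18, adjusted p = 0.597). Thus 2 Sprouty genes were higher in the marrow and the third was not called. Spred1 had a log2FC of 0.19 (adjusted p = 0.237), Dusp5 of -0.13 (adjusted p = 0.764) and Dusp6 of 0.10 (adjusted p = 0.588). Dusp6 stood at 99.0, 116.6 and 128.6 FPKM in mpECs and at 124.0, 132.5 and 110.8 FPKM in bmECs, and its groups overlapped broadly.

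Spred2 and Dusp4 were under the filter of 1 FPKM and were not tested. Spred2 had means of 0.490 and 0.623 FPKM in mpECs and bmECs, from 16 to 32 reads a library. Dusp4 was carried by 15 reads over the 3 mpEC libraries, 12 of them in mpEC 3, and by 4 over the 3 bmEC libraries. The ratio of these rates was 0.255, with an exact conditional 95% interval of 0.0616 to 0.800 that covers counting error only.

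Within the bmECs, bmEC 3 was the lowest of the 3 libraries for 7 of the 8 members, all but Dusp4. mpEC 3 was the highest of its group for 7 of 8, all but Spry2. Without bmEC 3 the log2FC of Spry1 was 0.84 and that of Spry4 was 0.01. The summed markers of other cells moved with the place of origin: 9 osteoblast markers came to 247.2 to 975.7 FPKM in mpECs and 45.5 to 60.9 FPKM in bmECs, 5 chondrocyte markers to 16.5 to 19.0 and 0.0116 to 0.182 FPKM, and 3 macrophage markers to 1021 to 1867 and 663.7 to 932.5 FPKM. The sum of 6 pericyte and stromal markers overlapped, at 46.6 to 50.9 FPKM in mpECs and 28.7 to 69.1 FPKM in bmECs. Of these, 1 of 4 tested was called higher in bmECs and 0 lower. The part of other cells in the values of Spry2 and Spry1 was not tested. Of 8 endothelial markers 3 were called higher and 3 lower in bmECs, and their sum overlapped, at 975.4 to 1227 and 1067 to 1082 FPKM.

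**Figure D3:**
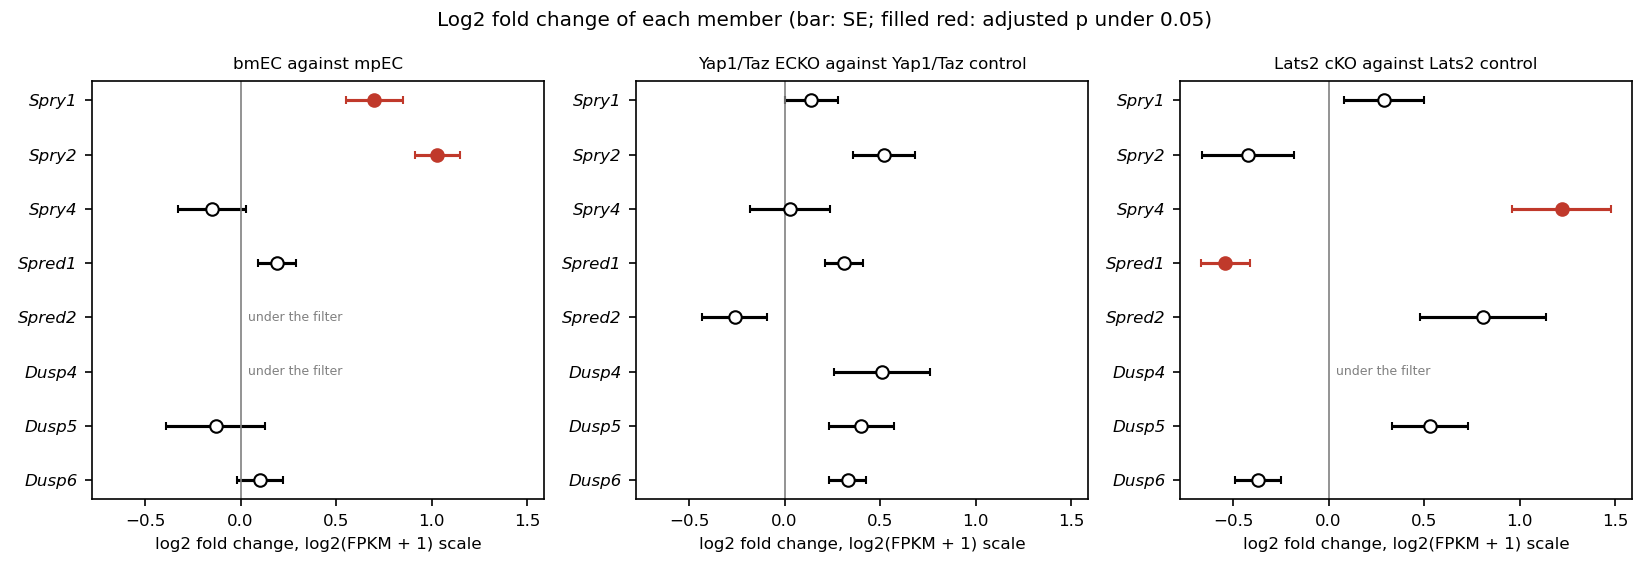
Log2 fold change (log2FC) on the log2(FPKM + 1) scale (horizontal axis) with its standard error (bar) for each member (vertical axis) in the 3 comparisons; filled red points have an adjusted p under 0.05. Spry1 and Spry2 pass in bmECs against mpECs, none passes in the libraries labelled ECKO, and Spry4 (higher) and Spred1 (lower) pass in Lats2 cKO; members without a point were under the filter.

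The comparison of libraries labelled ECKO with their controls asks what changes in bone ECs when Yap1 and Taz are targeted. All 8 members were tested by limma and 0 were called, where 1.31% of all 11320 genes were. At an unadjusted p below 0.05 there were 4 members, Spry2, Spred1, Dusp5 and Dusp6, and 2023 genes in all. Limma-voom on recovered reads, run as an alternative, also called 0 members.

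Spry2 stood at 10.0, 14.2 and 11.0 FPKM in the controls and at 14.7, 16.2 and 20.7 FPKM in the libraries labelled ECKO. Its log2FC was 0.52 (SE 0.16, adjusted p = 0.125), and the groups did not overlap. Spred1, which holds Ras in check, stood at 14.7, 12.5 and 13.4 FPKM and at 17.2, 17.7 and 16.2 FPKM, with a log2FC of 0.31 (SE 0.10, adjusted p = 0.144). These were small differences without overlap that did not pass the threshold. Dusp6 gave 72.9, 65.5 and 67.0 FPKM against 80.6, 92.9 and 86.4 FPKM, a log2FC of 0.33 (SE 0.097, adjusted p = 0.113). In all, 3 of 8 members did not overlap, beside 23.6% of all genes tested.

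For the nuclear phosphatases 1 library decided the outcome. Dusp5 stood at 77.4, 76.4 and 64.3 FPKM in the controls and at 70.2, 111.6 and 113.2 FPKM in the libraries labelled ECKO (log2FC 0.40, SE 0.17, adjusted p = 0.262). Dusp4 stood at 5.61, 7.79 and 6.43 FPKM and at 5.71, 12.5 and 12.7 FPKM (log2FC 0.51, SE 0.25, adjusted p = 0.323). In both genes ECKO 1 lay within the range of the controls and the other two libraries lay above it. Without ECKO 1 both passed the threshold in limma, Dusp5 with a log2FC of 0.63 (adjusted p = 0.0247) and Dusp4 with 0.85 (adjusted p = 0.0241). Calls over all genes rose in that fit too, to 215 higher and 78 lower, from 100 and 48 with all libraries. Over the 15 alternatives the adjusted p ran from 0.0247 to 0.606 for Dusp5 and from 0.0241 to 0.686 for Dusp4. As the strand setting is not stated, reads on Dusp5 cannot be divided from those of AC137853.2, an antisense transcript over 22.1% of its exon bases.

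The remaining 3 members had log2FC values of 0.14 for Spry1 (adjusted p = 0.659), -0.26 for Spred2 (adjusted p = 0.444) and 0.03 for Spry4 (adjusted p = 0.959). Spry4 rested on 15 to 56 reads a library. The median log2FC was 0.32 over the 8 members and -0.0047 over all genes tested. The sum of 8 endothelial markers also lay higher in the libraries labelled ECKO, at 563.4 to 647.9 FPKM against 488.2 to 497.8 FPKM in the controls, with 0 of the 8 markers called. Sums of 5 B cell, 4 macrophage and 9 osteoblast markers were lower there, at 158.5 to 164.0 against 196.7 to 224.7 FPKM, 604.9 to 705.0 against 709.1 to 997.0 FPKM and 13.2 to 31.4 against 42.2 to 61.8 FPKM. Of 7 osteoblast markers tested 3 were called lower, beside 1.31% of all genes called, and no B cell or macrophage marker was called. Of 4 megakaryocyte markers 1 was called higher, with sums that overlapped. The part of these cell types in the values of the members was not tested.

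The comparison of Lats2 cKO with its controls asks what follows in bone ECs from targeting the kinase upstream of Yap1 and Taz. Of 7 members tested, Spry4 was called higher and Spred1 lower; over all genes 21.8% were called, 11.8% higher and 9.98% lower. Of these calls 54.1% were higher, against 38.4% under limma-voom. Spry4 stood at 3.20 and 5.64 FPKM in the controls and at 10.2 and 12.5 FPKM in Lats2 cKO. Both mutant libraries lay above both controls, with means of 4.42 ± 1.73 and 11.3 ± 1.64 FPKM (SD, n = 2 each), 2.56-fold apart. The log2FC was 1.22 (SE 0.26, adjusted p = 0.0305), called in 8 of 13 alternatives with adjusted p between 0.0125 and 0.165.

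Spred1 moved the other way. It stood at 15.9 and 17.6 FPKM in the controls and at 10.9 and 11.5 FPKM in Lats2 cKO, with a log2FC of -0.54 (SE 0.13, adjusted p = 0.0394). It was called in 6 of 13 alternatives, with adjusted p between 0.0114 and 0.250. With 2 libraries a group, leaving out either library of either group ended the calls of both genes. In those fits the lone library was assumed to vary like the other group. Over the 13 alternatives the log2FC ran from 0.88 to 1.55 for Spry4 and from -0.72 to -0.47 for Spred1.

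Dusp6 did not pass, with 117.4 and 123.7 FPKM in the controls and 97.1 and 89.7 FPKM in Lats2 cKO (log2FC -0.37, SE 0.12, adjusted p = 0.0807); 2 of 13 alternatives called it, over a range from 0.0307 to 0.375. Dusp5 stood at 6.10 and 8.43 FPKM and at 9.64 and 12.2 FPKM (log2FC 0.53, SE 0.20, adjusted p = 0.118). The cytoplasmic and the nuclear phosphatase thus had estimates of opposite sign, neither of them called. Spred2 had a log2FC of 0.81 (SE 0.33, adjusted p = 0.138), Spry1 of 0.29 (SE 0.21, adjusted p = 0.361) and Spry2 of -0.42 (SE 0.24, adjusted p = 0.269). Spry2 rested on 13 to 30 reads a library. Of the 7 members tested 6 did not overlap between groups, beside 68.2% of all genes tested.

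Dusp4 was under the filter. It had 1 and 4 reads in the control libraries, or 0.0734 and 0.245 FPKM, and 22 and 15 reads in the Lats2 cKO libraries, or 2.13 and 1.10 FPKM. The ratio of the rates was 8.37, with an exact conditional 95% interval of 3.28 to 27.3 for counting error only. Fitted without the filter its log2FC was 1.15 (adjusted p = 0.071), and over the 3 alternatives that could test it the adjusted p ran from 0.071 to 0.256.

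Marker sums of blood cells did not overlap between the Lats2 groups. Sums of 6 neutrophil markers were 1478 to 2223 FPKM in the controls and 564.3 to 700.5 FPKM in Lats2 cKO, those of 5 B cell markers 78.0 to 89.5 and 23.0 to 29.4 FPKM, and those of 5 erythroid markers 2153 to 2957 and 176.5 to 1203 FPKM. Of these, 4 neutrophil and 4 B cell markers were called lower and no erythroid marker was. Macrophage (3 markers) and megakaryocyte (4 markers) sums were lower as well, at 406.9 to 499.1 against 58.2 to 266.6 FPKM and 28.9 to 106.6 against 9.45 to 12.1 FPKM. The sum of 6 pericyte and stromal markers was higher, 31.4 to 40.0 against 62.5 to 72.5 FPKM, with 3 called, and endothelial sums overlapped, 1619 to 1733 against 1559 to 1628 FPKM. Their part in the changes of Spry4 and Spred1 was not tested.

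The rest of the pathway was read from fixed lists. Over all genes tested, 23.5% were called in bmECs, 1.31% in the libraries labelled ECKO and 21.8% in Lats2 cKO. The counts of each list below stand beside these shares. In the libraries labelled ECKO no gene of these lists was called without control 3, without ECKO 2, without ECKO 3 or without the filter on low values, so that each call named there is lost in each of those fits. In Lats2 cKO none was called without either control. The receptors that feed the cascade differed between places: of 9 tested, 5 were called higher in bmECs and 4 lower. The higher ones were Flt4, the VEGF-C receptor (74.2 to 160.5 FPKM as group means, log2FC 1.11), Kdr, the main VEGF receptor (126.3 to 200.5 FPKM, 0.67), Tek, the angiopoietin receptor (162.3 to 226.9 FPKM, 0.49), Insr and Igf1r. The lower ones were Flt1, Tie1, Fgfr1 and Kit.

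In Lats2 cKO, 3 of 13 receptors tested were called higher, Fgfr1 (5.14 to 11.6 FPKM), Kit (12.7 to 32.0 FPKM) and Met (1.02 to 3.18 FPKM), and 3 lower. The lower ones, each of which was higher in bmECs, were Kdr (331.3 to 172.6 FPKM, log2FC -0.95), Flt4 (134.7 to 37.3 FPKM, -1.81) and Tek (214.2 to 86.0 FPKM, -1.35). In the libraries labelled ECKO, Flt4 was the 1 of 11 tested that was called (53.5 to 84.1 FPKM, log2FC 0.64).

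Ligand transcripts held the largest estimates of the lists in the libraries labelled ECKO (Vegfa) and in Lats2 cKO (Angpt2). Of 10 tested, 2 were called higher in bmECs (Hgf and Igf1) and 4 lower (Vegfc, Pgf, Kitl and Pdgfb), with Vegfc going from 18.3 FPKM in mpECs to 3.47 FPKM. In Lats2 cKO 4 of 10 were called higher, led by Angpt2, a Tek ligand, from 8.11 to 325.2 FPKM (log2FC 4.98), with Pgf, Pdgfb and Kitl, and Vegfa and Vegfb were lower. Vegfa was the 1 of 10 called in the libraries labelled ECKO, from 21.7 to 52.8 FPKM (log2FC 1.26).

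In the cascade between receptor and Erk, 3 of 16 genes tested were called in bmECs, beside 23.5% of all genes. The calls included Braf, which was higher, and Mapk3 (Erk1), which was lower, from 26.4 to 17.1 FPKM. The count was 1, with none higher, without mpEC 2, mpEC 3 or bmEC 1, and 2 of the list, none higher, were called without bmEC 2. Of 17 tested in the libraries labelled ECKO only the adaptor Grb2 was called, lower, and of 16 tested in Lats2 cKO only the phosphatase Ptpn11, higher. The medians of this list were 0.12, 0.03 and -0.07 in the order of the comparisons, beside all-gene medians of -0.0007, -0.0047 and -0.0033.

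Other brakes on receptors and Ras moved in both directions. Errfi1, an inhibitor of EGF receptor family kinases, was called higher in the libraries labelled ECKO (5.40 to 10.9 FPKM, log2FC 0.90) and in Lats2 cKO (5.14 to 16.5 FPKM, 1.46). It was the 1 of 11 brakes called in the former. In Lats2 cKO, Lrig1 was also higher and Cblb and Sh2b3 lower, 4 of 12 in all. In bmECs the ubiquitin ligase Cblb was higher and the Ras GTPase-activating gene Rasa1 lower, 2 of 9. No brake was called lower there without mpEC 2, mpEC 3, bmEC 1, bmEC 2 or bmEC 3, so that the call of Rasa1 was lost in 5 of 6 such fits. Among the other Sprouty, Spred and Dusp family members, 1 of 6 was called in bmECs (Dusp8, from 5.20 to 1.79 FPKM), 0 of 6 in the libraries labelled ECKO and 1 of 6 in Lats2 cKO (Dusp7, from 55.9 to 38.3 FPKM).

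Other transcripts that Erk is known to induce were read from a list of 15. Of 13 tested in bmECs, Etv5 and Ier3 were called higher and Emp1, Etv1, Fosl1 and Ccnd1 lower, Emp1 from 224.8 to 38.3 FPKM. In Lats2 cKO, Etv4, Ccnd1, Emp1 and Myc were called higher, 4 of 13. Etv4, an ETS factor, rose from 0.0812 to 3.02 FPKM as group means, a log2FC of 1.89 (adjusted p = 0.0125) that depends on the pseudocount at such low levels. Etv5, its close relative, did not pass there (log2FC -0.41, adjusted p = 0.136). In the libraries labelled ECKO only Myc was called, lower, from 43.1 to 22.9 FPKM. The medians of the list were -0.08, 0.26 and 0.22, beside 0.14, 0.32 and 0.29 for the tested feedback inhibitors.

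**Figure D4:**
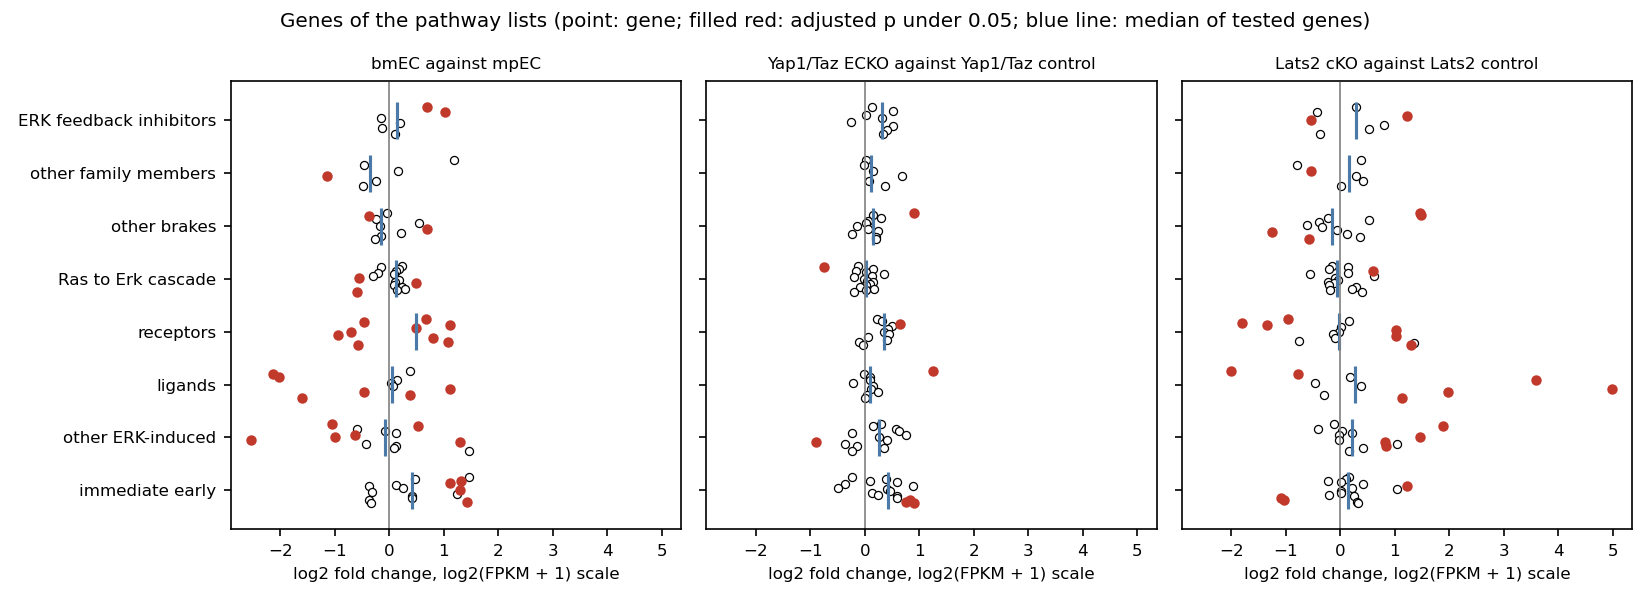
Log2 fold change (log2FC) on the log2(FPKM + 1) scale (horizontal axis) of every tested gene (points) of the feedback inhibitors and 7 pathway lists in the 3 comparisons; filled red points have an adjusted p under 0.05 and blue lines are list medians. Over the 3 comparisons together the ligands run from -2.14 to 4.98 (the latter in Lats2 cKO), and the feedback inhibitors lie between -0.54 and 1.22.

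Variation among replicate libraries shows which members rise and fall together regardless of group. Each library was taken as its deviation from the mean of its own group on the log2(FPKM + 1) scale, which gives 16 points that share their library, its depth and its sort. Since the group means were removed, fewer than 16 of them are independent, and the 2 libraries of each Lats2 group mirror each other. Spry1 and Dusp5 were the most alike pair of members (Pearson r = 0.83), followed by Spred1 and Dusp6 (r = 0.74) and by Dusp5 and Dusp6 (r = 0.71). The lowest coefficients among members were those of Spry2, with r of -0.43 to Spred2 and -0.42 to Spred1. Its r was 0.39 to Dusp4, 0.19 to Spry4, 0.18 to Dusp5, 0.12 to Dusp6 and 0.04 to Spry1. In the Lats2 set Spry2 rested on 13 to 30 reads a library. Spry1 and Spry2 are the Sprouty genes that were both higher in bmECs. These coefficients are descriptions.

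Dusp5 was most like the immediate-early genes, which are switched on within minutes of a stimulus and also by tissue dissociation. Among 4947 genes that averaged 5 FPKM or more in each comparison, its nearest were Atf3 (r = 0.92), Junb (r = 0.92) and Socs3 (r = 0.90). Its median r to the 13 listed immediate-early and dissociation stress genes that could be compared was 0.73, beside 0.07 to all 4947 genes. Dusp6 (0.63 beside 0.06) and Spry4 (0.57 beside -0.01) came next, and Spry2 was lowest (0.28 beside 0.05).

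The points behind this can be read library by library. Atf3 stood at 18.1 and 17.5 FPKM in bmEC 1 and 2 and at 6.00 FPKM in bmEC 3, where Dusp5 stood at 1.57, 1.75 and 0.687 FPKM. In the libraries labelled ECKO, Atf3 stood at 60.9, 105.6 and 101.8 FPKM, beside Dusp5 at 70.2, 111.6 and 113.2 FPKM. So bmEC 3 and ECKO 1 were low in both genes. mpEC 3, the highest mpEC library for Dusp5 at 2.46 FPKM, was also the highest for Atf3, at 24.3 FPKM. The CArG box, of which the Dusp5 promoter holds 2, was found in the 250 bases before the start of 1 immediate-early gene, Zfp36. There were 14 such genes with a RefSeq window. Bases farther from the start were not searched, so boxes there would be missed.

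Spry4 had Egr1 as its nearest gene (r = 0.86), with Abhd5 and Med21 (0.84 each). Egr1, another immediate-early gene, stood at 14.0 and 23.5 FPKM in the Lats2 controls and at 21.9 and 27.3 FPKM in Lats2 cKO, next to Spry4 at 3.20, 5.64, 10.2 and 12.5 FPKM. Unlike Spry4, Egr1 did not pass the test there (log2FC 0.41, adjusted p = 0.309). Dusp6 had Hif1a (0.90), Mbnl2 (0.89) and Cdk17 (0.88) as its nearest genes. For the other members these were Rps21, Oaf and Pold4 for Spry1 (0.91 to 0.92), Erp44, Glg1 and Elp3 for Spry2 (0.85 to 0.90), Tm9sf3, Ensa and Rnf141 for Spred1 (0.84 to 0.86), Galnt11, Emc7 and Tnfaip1 for Spred2 (0.83 to 0.87) and Clic4, Ext2 and Gimap4 for Dusp4 (0.85 to 0.88). All were picked as the 3 highest of 4947 coefficients over these 16 points. Dusp4 rested on 0 to 12 reads a library in mpECs and bmECs and on 1 to 22 in the Lats2 set. Spred2 rested on 16 to 32 reads in mpECs and bmECs.

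**Figure D5:**
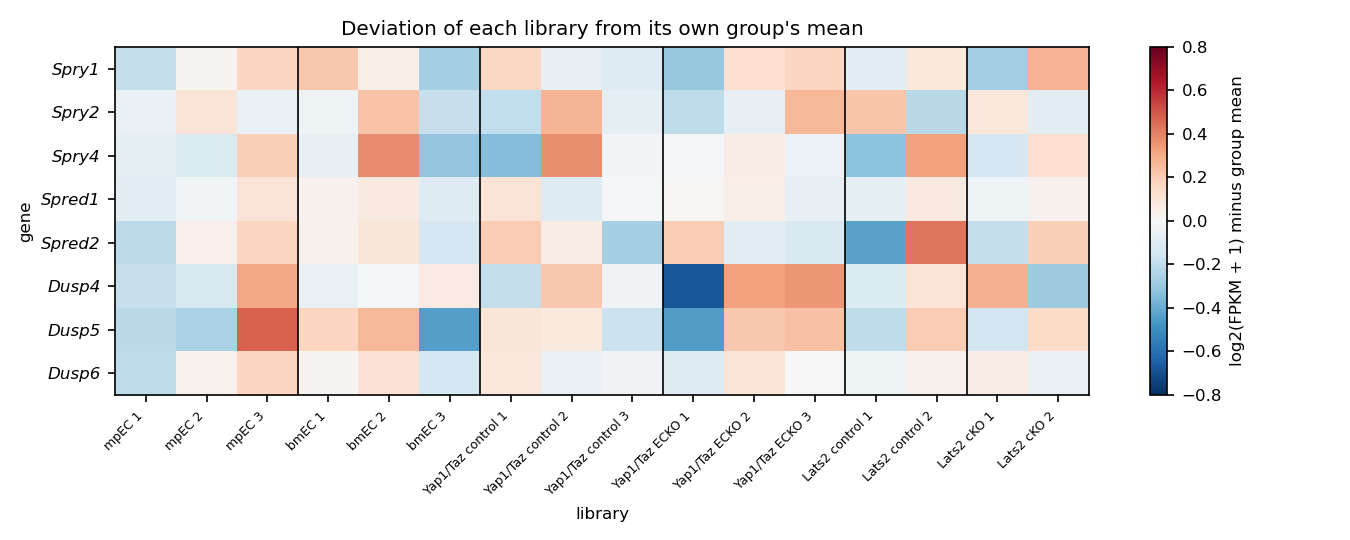
Deviation of each library (horizontal axis) from the mean of its own group, in log2(FPKM + 1) units (colour), for the 8 members (vertical axis); black lines divide the groups. ECKO 1 is low for Dusp4 and Dusp5, and bmEC 3 is low for 7 members. In Lats2 control 1 Spry2 is high and the other 7 members are low.

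Genes of the immediate-early list were called between groups too. Of 15 tested in bmECs, Jun, Junb, Ier3 and Socs3 were called higher and none lower, 4 of 15 beside 23.5% of all genes. This count was 10 without bmEC 3, 2 without mpEC 1, mpEC 2, bmEC 1 or bmEC 2, and 4 without mpEC 3. Junb stood at 34.9, 43.2 and 56.3 FPKM in mpECs and at 109.5, 103.2 and 78.1 FPKM in bmECs. In the libraries labelled ECKO, 3 of 16 were called, all higher, namely Socs3, Gadd45b and Hspa1b, beside 1.31% of all genes. In Lats2 cKO, Atf3 was called higher and Hspa1a and Hspa1b lower, 3 of 16 beside 21.8% of all genes. The list medians were 0.42, 0.44 and 0.14. Dusp5, nearest to this list within groups, was called in none of the 3 comparisons, and Spry1 and Spry2, called in bmECs, had within-group medians of 0.48 and 0.28 to it. Whether the state of these genes at sorting bears on the feedback inhibitors was not tested.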

How the data were processed

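The authors sorted bone ECs, prepared TruSeq Stranded Total RNA libraries, mapped paired-end reads to mm10 (GRCm38) by TopHat, obtained gene counts with HTSeq 0.6.1 and deposited FPKM values in 3 separately normalised sets; the FPKM step and the strand setting are not given in the sources used here. No column was left without a sample. Ensembl identifiers of the Yap1/Taz set were paired with symbols by GENCODE M21 (21375 of 21603).

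log2(FPKM + 1) was fitted in limma 3.58.1 (R 4.3.3) with a group term and a mean-variance trend, on genes averaging 1 FPKM or more, with two-sided p-values adjusted by Benjamini-Hochberg over all genes tested, and the script was tested on simulated data. The authors' own DESeq2 results were not used. Reads were estimated from FPKM steps and gene lengths; 62.5% to 70.0% of low values (up to 20 reads) came out whole within 0.02 reads, against 4% by chance. Alternatives were another pseudocount (0.1), no filter or 5 FPKM, quantile and median-ratio scaling, no trend, robust moderation, a replicate block, limma-voom on the recovered reads and leaving out each library. Named genes are the 8 members, Yap1, Wwtr1, Lats2, called genes of the fixed lists or up to 4 examples, and the 3 genes most like each member. Members and lists were chosen with earlier results of these data known. Motifs were searched in RefSeq windows of 250 bases before the start (GRCm38.p6). One gene of the cascade list is not reported here.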

Additional observations from a re-analysis of the deposited data

How the results depend on the processing

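Spry2 and Spry1 were called higher in bmECs in every alternative run. For Spry4 in that comparison the log2 fold change was 0.01 without bmEC 3, for Dusp5 it was 0.11 without mpEC 3 and 0.09 without bmEC 3, and for Dusp6 it was -0.10 under limma-voom and -0.0043 without mpEC 1; none was called. With a library left out, these ran from -0.34 to 0.01, from -0.26 to 0.11 and from -0.0043 to 0.18. Spry4 in the libraries labelled ECKO gave -0.05 under quantile normalization, -0.02 under limma-voom and -0.14 to 0.22 with a library left out, lowest without control 1. Members called there were 0 to 2 over the fits that leave out a library, and Dusp4 and Dusp5 passed only without ECKO 1. In Lats2 cKO, members called were 0 without the filter, 1 without the trend, 1 with the replicate block (Spred1 adjusted p = 0.0559) and 0 when any library was left out.

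All genes called in the libraries labelled ECKO, 148 in the reported fit (67.6% of them higher), were 1 without the filter, 17 without the trend, 357 with limma-voom (57.4% higher) and 1 to 293 when a library was left out (20 without control 2, 14 without control 3, 293 without ECKO 1, 1 without ECKO 2 and 1 without ECKO 3). In Lats2 cKO, 2711 genes became 1389 without the filter and 0 to 2701 when a library was left out (933 without cKO 2). Limma-voom, which scales by recovered reads, shifted the median of all genes by -0.2 in bmECs and by -0.14 in Lats2 cKO, and the share of calls that were higher went from 55.2% to 27% and from 54.1% to 38.4%; the cause was not tested. A block on the replicate number changed the count of all genes called to 3072 in bmECs (2682 without it), 45 in the libraries labelled ECKO and 2655 in Lats2 cKO. Same-numbered libraries deviated with r of 0.307, 0.0876 and 0.102, of -0.175, -0.123 and -0.155, and of 0.0651 for each number of the Lats2 set, in the order of the comparisons. Not every one was over 0.1 and the labels tie no number to an animal, so the numbers were not used as pairs. No pair of libraries agreed within sampling noise. Precision is limited by 2 libraries a group in the Lats2 set and by few reads on Dusp4, Spred2, Spry4 and Spry2 where given.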
